A study of Mus musculus with 2 samples.

Results

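Interferon-stimulated genes are the genes that cells switch on when interferon binds its receptors. Here 49 of them were followed among the 22609 genes measured, as a list of symbols chosen with earlier results of these data known. All 49 were found by symbol in both libraries, and 48 reached a level of at least 1 CPM (counts scaled to library size and normalised) in at least 1 of them, Ifi44 in the DKO library alone. The RNA came from CD8+ regulatory T cells, a suppressive subset of T cells, of the spleens of naive mice 3 months of age. There were 2 libraries of total RNA, 1 per genotype. The WT library came from wild-type mice and the other from Tgfbr2-/-Eomes-/- mice, called DKO here, deficient in Eomes, a T-box transcription factor, and in TGF-beta receptor 2. The labels do not say how or in which cells the alleles were deleted, which markers were used to sort, or how many mice gave each library.

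Type I interferons (alpha and beta) act through the receptor chains IFNAR1 and IFNAR2 and the kinases TYK2 and JAK1, and a complex that contains STAT2 and IRF9 then binds the interferon-stimulated response element (ISRE) in promoters. Interferon gamma acts through IFNGR1 and IFNGR2 and the kinases JAK1 and JAK2, and its target genes carry the gamma-activated sequence (GAS). Many genes answer to both. In T cells these pathways set antiviral resistance and shape effector differentiation, and T cells and NK cells are themselves the main source of interferon gamma.

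The libraries held 22307065 gene counts (WT) and 19661212 (DKO), and 12619 and 13284 genes had counts. Because each genotype has 1 library, no replicate error could be measured and no test was run. Each bracketed range below is an exact 95% Clopper-Pearson interval of the ratio that covers counting error only, and it compares these libraries, not the genotypes. Higher and lower, where counted at 2-fold or 1.5-fold, mean a ratio past that limit with an interval that leaves out 1. Of the targeted genes, Eomes was at 469 CPM in WT and 180 in DKO, 2.61-fold lower (2.52 to 2.72), and Tgfbr2 at 357 and 244, 1.46-fold lower (1.41 to 1.51). Neither was near 0, and which exons were deleted is not stated in the labels, so these counts may include undeleted exons. The source of the remaining reads was not tested. Cd3e, Cd8a, Cd8b1, Il2rb, Ikzf2 and Klra7, markers of the sorted cells, were all present and summed to 5468 CPM in WT and 4955 in DKO. In bulk RNA, fewer cells of a type and less RNA per cell cannot be told apart.

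The interferon-stimulated genes were mostly higher in the DKO library, by moderate amounts. Of the 48 compared, 45 had a ratio above 1, against 50.2% of the 11735 genes compared. A 2-fold higher level was found for 10 of the 48 (20.8%), against 11.6% of all genes, and a 2-fold lower level for 0, against 3.6%. The difference from the background was wider at 1.5-fold: 25 of the 48 (52.1%) were higher, against 17.7% of all genes, and 0 were lower, against 8.41%. The median log2 ratio of the members was 0.65, a 1.57-fold difference, and that of all genes compared was 0.00. Because the list was chosen with earlier results of these data known, these shares and medians are a description. The 49 genes together made up 4789 CPM of the WT library and 6210 of the DKO library, or 0.471% and 0.631% of the gene counts.

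Scarce genes as a whole had higher ratios in the DKO library, with a median log2 ratio of 0.46 for all genes with a mean between 1 and 5 CPM. By the mean of both libraries, 43 of the 48 members were at 20 CPM or more. Of these 43, 6 (14.0%) passed 2-fold upwards, against 2.79% of the 7217 genes at that mean level, and 21 (48.8%) passed 1.5-fold, against 6.29%. A gene that is high in the DKO library alone can enter such a class through that value. By the WT level alone, 38 members were at 20 CPM or more, of which 4 (10.5%) passed 2-fold and 16 (42.1%) passed 1.5-fold upwards, against 1.47% and 4.08% of the 7078 genes at that WT level. At a mean of 20 to 100 CPM the members' median log2 ratio was 0.77 over 24 genes and that of all genes -0.03. At a mean of 100 CPM or more it was 0.17 over 19 genes and -0.09 for all genes. Of these 19, 0 passed 2-fold upwards, against 1.47% of the 2387 genes at that level. At 1.5-fold, 4 of the 19 (21.1%) passed upwards, against 2.85%. Within the list, too, the scarcer genes had the higher ratios, with a Spearman correlation of -0.71 between the log2 ratio and the WT level across 48 genes and -0.35 across the 11735. This is a description across genes, and both quantities contain the same WT count.

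**Figure D1:**
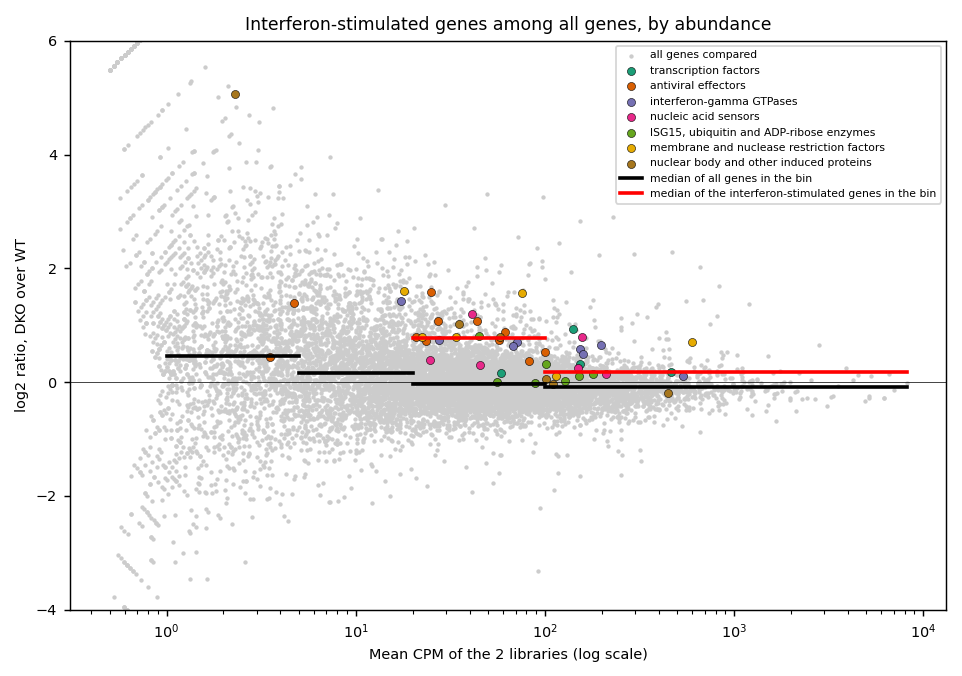
log2 ratio of the DKO to the WT library (vertical axis) against the mean CPM of the 2 libraries (log scale). Grey points are all genes compared, of which 124 lie outside the range drawn; coloured points are 48 interferon-stimulated genes by role; black lines are medians of all genes and red lines medians of the interferon-stimulated genes in bins of abundance, drawn for the 2 bins with more than 3 of them. Ifi44 is drawn at 33.6-fold, its DKO level over a floor of 3 WT counts. In both bins the red line lies above the black line, at 0.77 against -0.03 and at 0.17 against -0.09.

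**Figure D2:**
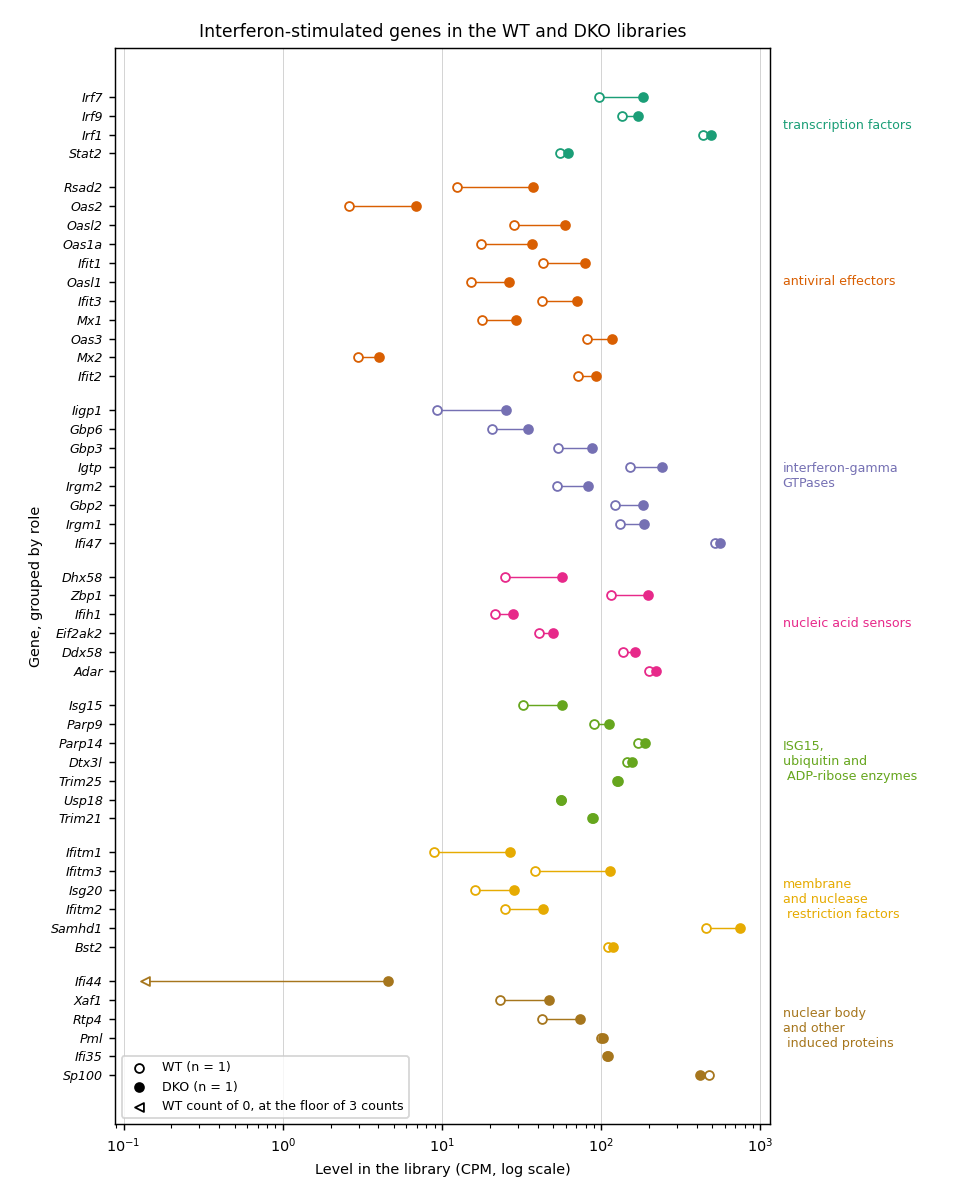
Level of each interferon-stimulated gene in CPM (log scale) in the WT library (open circles) and the DKO library (filled circles), grouped by role; n = 1 library each, so there is no error bar. Ifi44 had a WT count of 0 and is drawn at the floor of 3 counts, and Tgtp1, with 0 counts in both, is left out. The filled circle lies to the right for 45 of 48 genes; Sp100 is the clearest gene with the order turned.

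Several marker lists of other cell types were also higher in the DKO library. The counts past 2-fold below stand beside 11.6% of all genes compared that were higher and 3.6% that were lower. Among scarce genes the share higher was larger, at 35.0% for 1 to 5 CPM in the higher library and 18.8% for 5 to 20 CPM. In such short lists, counts of a few genes cannot be set apart from these shares. Neutrophil markers, with 6 of 7 at least 2-fold higher, summed to 522 CPM in WT and 2516 in DKO. Dendritic cell markers, with 5 of 7 higher, summed to 476 and 1461, and those of monocytes and macrophages, with 2 of 7 higher, to 771 and 1477. The plasmacytoid dendritic cell, the main maker of type I interferon, had summed marker levels of 75.1 and 103 CPM, most of it from Pacsin1. Of its 4 markers compared, 2 were at least 2-fold higher. Siglech, its defining marker, with 14 and 95 counts, was 7.23-fold higher (4.23 to 14.1), and Ccr9, with 214 and 499, was 2.55-fold higher. Cox6a2 had 0 and 15 counts and Klk1 4 and 0, both under 1 CPM. CD4+ T cell markers summed to 90.0 and 202 CPM (3 of 4 higher), NK cell markers to 344 and 447 (1 of 4 higher), B cell markers to 51.1 and 66.6 (1 of 6 higher, 1 lower) and plasma cell markers to 197 and 397 (1 of 4 higher, 1 lower), nearly all of it Jchain. Those of erythroid cells and platelets summed to 11.4 and 20.4 CPM (2 of 3 compared higher). Hbb-b1 and Hba-a1 had 0 counts in both libraries, but non-unique alignments were not counted, so this does not show their absence. Myeloid cells express Ifitm3, Samhd1, Irf7 and Rsad2 too, and the part of other cells in the members' ratios was not tested.

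**Figure D3:**
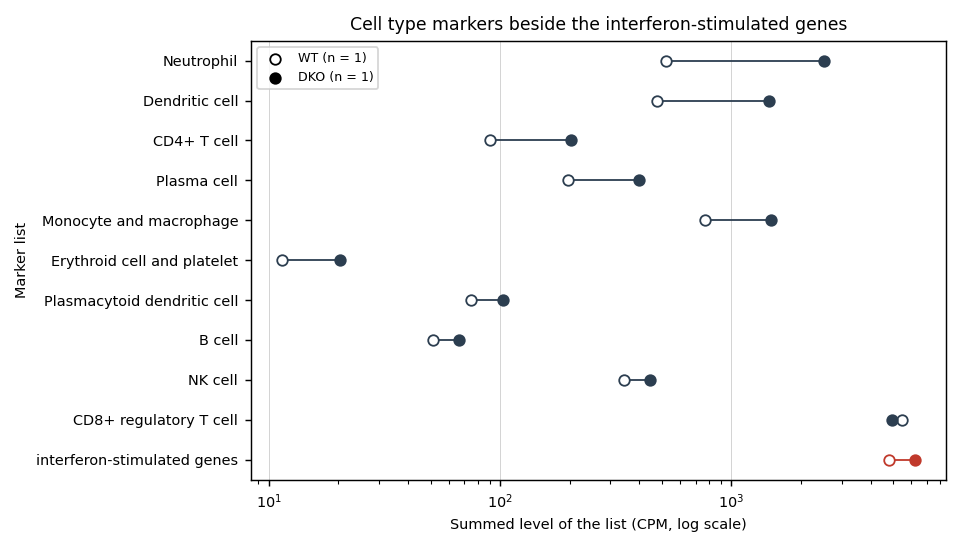
Summed level of each marker list in CPM (log scale) in the WT library (open circles) and the DKO library (filled circles), n = 1 library each, with the interferon-stimulated genes in red at the bottom. The neutrophil list has the widest gap, from 522 to 2516 CPM, the interferon-stimulated genes go from 4789 to 6210, and the markers of the sorted cells go from 5468 to 4955.

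The members' promoters were searched for the elements named above, and a few are shown to let the type I-type and gamma-type genes be compared by sequence. RefSeq promoter windows (build GRCm38.p6, 250 bases before to 50 after each start) were found for 38 of the 49 members. The ISRE-type motif searched was GAAANNGAAA and the GAS-type motif TTCNNNGAA, on both strands. At least 1 window of 20 of the 38 members (52.6%) held the ISRE-type motif, against 3.99% of 27025 genes with a window. The GAS-type motif was found in 13 (34.2%), against 9.55%. The 2 motifs overlapped in 2 of the members' 47 windows, those of Bst2 and Ifitm3. By role, 5 of 8 antiviral effectors and 6 of 7 GTPases with a window held the ISRE-type motif, and 2 and 3 held the GAS-type motif. Grouped by ratio, 10 of 18 that were at least 1.5-fold higher held the ISRE-type motif, as did 9 of 19 that were compared and were not.

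Stretches before the start of 3 antiviral effectors and of Isg15 show single or repeated ISRE-type motifs, in capitals. Each stretch is printed in the direction of its gene, and in Rsad2 and Ifit1 the motif lies on the other strand.
Rsad2 (chr12:26456538-26456597, minus strand): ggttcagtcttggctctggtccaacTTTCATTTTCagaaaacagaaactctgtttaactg
Ifit1 (chr19:34640779-34640838, plus strand): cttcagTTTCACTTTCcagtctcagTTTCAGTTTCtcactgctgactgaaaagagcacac
Oas1a (chr5:120907526-120907564, minus strand): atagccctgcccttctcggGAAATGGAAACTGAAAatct
Isg15 (chr4:156200850-156200909, minus strand): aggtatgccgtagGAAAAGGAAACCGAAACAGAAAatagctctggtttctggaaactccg
Ifit1 holds separate motifs, while in Oas1a and Isg15 they overlap into a longer run of GAAA repeats.

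Among the interferon-gamma GTPases, 3 immunity-related GTPase genes shared an arrangement in which a GAS-type motif is followed, after 2 bases, by an ISRE-type motif, both in capitals.
Igtp (chr11:58199486-58199555, plus strand): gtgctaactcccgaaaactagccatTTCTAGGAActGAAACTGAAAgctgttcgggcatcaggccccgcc
Irgm2 (chr11:58214877-58214947, plus strand): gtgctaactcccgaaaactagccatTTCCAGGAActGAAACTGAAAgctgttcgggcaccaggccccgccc
Tgtp1 (chr11:48992289-48992359, minus strand): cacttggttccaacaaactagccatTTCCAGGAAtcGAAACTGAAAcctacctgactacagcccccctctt
Gbp2 (chr3:142620579-142620638, plus strand): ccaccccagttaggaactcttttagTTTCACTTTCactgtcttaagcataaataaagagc
In Bst2, outside the GTPases, overlapping ISRE-type matches follow the GAS-type motif, the first beginning inside it and another 3 bases after it. Gbp2, a guanylate-binding protein gene, is given beside them with its ISRE-type motif, on the other strand, alone. A match of letters is a description and not evidence that a factor was bound.

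The antiviral effectors are type I-type genes whose products block viral RNA and replication. The 6 membrane and nuclease restriction factors had a median log2 ratio of 0.80. Among the roles with more than 6 genes, the antiviral effectors had the highest median. All 11 had a ratio above 1, 4 (36.4%) passed 2-fold and 8 (72.7%) passed 1.5-fold upwards, against 11.6% and 17.7% of all genes, and the median log2 ratio was 0.79. Together they made up 337 CPM in WT and 562 in DKO. Rsad2 (viperin), an enzyme that makes a chain-terminating nucleotide, gave 272 WT and 747 DKO counts (12.4 and 37.4 CPM) and was 3.01-fold higher (2.62 to 3.47). It had the largest ratio of the 11.

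The oligoadenylate synthetases, which sense double-stranded RNA and activate RNase L, differed among themselves. Oas2 was scarce, with 57 and 137 counts (2.60 and 6.85 CPM), and was 2.62-fold higher (1.92 to 3.66) with the widest interval of those past 2-fold in this role. Oas1a, with 385 and 735 counts, was at 17.6 against 36.8 CPM, 2.09-fold higher (1.85 to 2.38). Of the stretches of 50 bases (the read length) in its annotated transcripts, 57.6% also occur in another gene, above all its near-copy Oas1g, so its value is uncertain. Oas3, with 1796 and 2347 counts (81.9 and 117 CPM) the most of them, was 1.43-fold higher (1.35 to 1.53), and its interval did not reach that of Oas1a or Oas2, although Oas2 and Oas3 are neighbours (here, genes with at most 2 protein-coding genes between them in RefSeq). Of the synthetase-like genes, Oasl2, with 622 and 1193 counts, was at 28.4 against 59.7 CPM, 2.10-fold higher (1.91 to 2.32), and its neighbour Oasl1, at 15.3 and 26.5 CPM, was 1.73-fold higher.

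The IFIT proteins bind foreign 5′ ends of RNA. Ifit1 was at 43.3 CPM in WT and 79.6 in DKO, 1.84-fold higher (1.69 to 1.99). Ifit3, at 42.8 and 71.2 CPM, was 1.67-fold higher (1.53 to 1.81), but 51.2% of its stretches are shared with another gene, above all its near-copy Ifit3b. Ifit2, with 1573 and 1855 counts (71.7 and 92.8 CPM), was 1.29-fold higher (1.21 to 1.38), the smallest ratio of the 11 although it is the neighbour of Ifit3. The dynamin-like GTPase gene Mx1 had 17.9 and 29.4 CPM and a ratio of 1.65 (1.45 to 1.87). Mx2 had 65 and 81 counts, and its interval of 0.974 to 1.93 included 1, so no difference was detectable at this depth.

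The interferon-gamma GTPases, which attack the vacuoles of intracellular pathogens, had ratios above 1 as well. Of 9 genes, 8 could be compared, and all 8 had an interval above 1. Past 1.5-fold upwards were 5 (62.5%), against 17.7% of all genes, whereas the share past 2-fold, 1 of 8 (12.5%), was near the 11.6% of all genes. The median log2 ratio was 0.65. They made up 1064 CPM in WT and 1402 in DKO. For the 6 Gbp, Irgm and Igtp genes alone, log2 ratios ran from 0.49 to 0.75, a band that lies wholly inside that of the antiviral effectors, 0.37 to 1.59. The difference between the antiviral median of 0.79 and the GTPase median of 0.65 was not tested.

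Igtp (Irgm3), second only to Ifi47 among the GTPases in level per exon length, gave 3354 WT and 4823 DKO counts (153 and 241 CPM) and was 1.58-fold higher (1.51 to 1.65). Irgm2, its neighbour with the near-identical promoter stretch shown above, had 52.9 and 82.5 CPM and a ratio of 1.56 (1.45 to 1.68), which could not be told apart from that of Igtp. Their annotated exons overlap by 162 bases, so reads from there cannot be assigned to either gene by position. Irgm1, a regulatory GTPase that keeps the effector GTPases inactive on the cell's own membranes, was at 132 against 185 CPM, 1.41-fold higher (1.34 to 1.48). Among guanylate-binding proteins, Gbp2, at 123 and 184 CPM, had a ratio of 1.495 (1.42 to 1.57), just under the 1.5-fold limit. Gbp3, at 53.9 and 88.1 CPM, and Gbp6, at 20.7 and 34.7 CPM, were 1.64-fold and 1.68-fold higher. Gbp6 shares 70.7% of its stretches with another annotated gene, so its value is uncertain.

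At the ends of the GTPase list stood Iigp1 and Ifi47. Iigp1 (Irga6), an effector GTPase, gave 206 WT and 507 DKO counts (9.39 and 25.4 CPM) and was 2.70-fold higher (2.29 to 3.19). Ifi47 (Irgd), the highest per length, with 11398 and 11195 counts (520 and 560 CPM), was 1.08-fold higher (1.05 to 1.11). Tgtp1 was counted 0 times in both libraries, which allows up to 0.137 CPM in WT and 0.150 in DKO. Of its stretches of 50 bases 81.2% are shared with another gene, above all its duplicate Tgtp2, which had 824 and 944 counts (37.6 and 47.2 CPM; ratio 1.26).

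**Figure D4:**
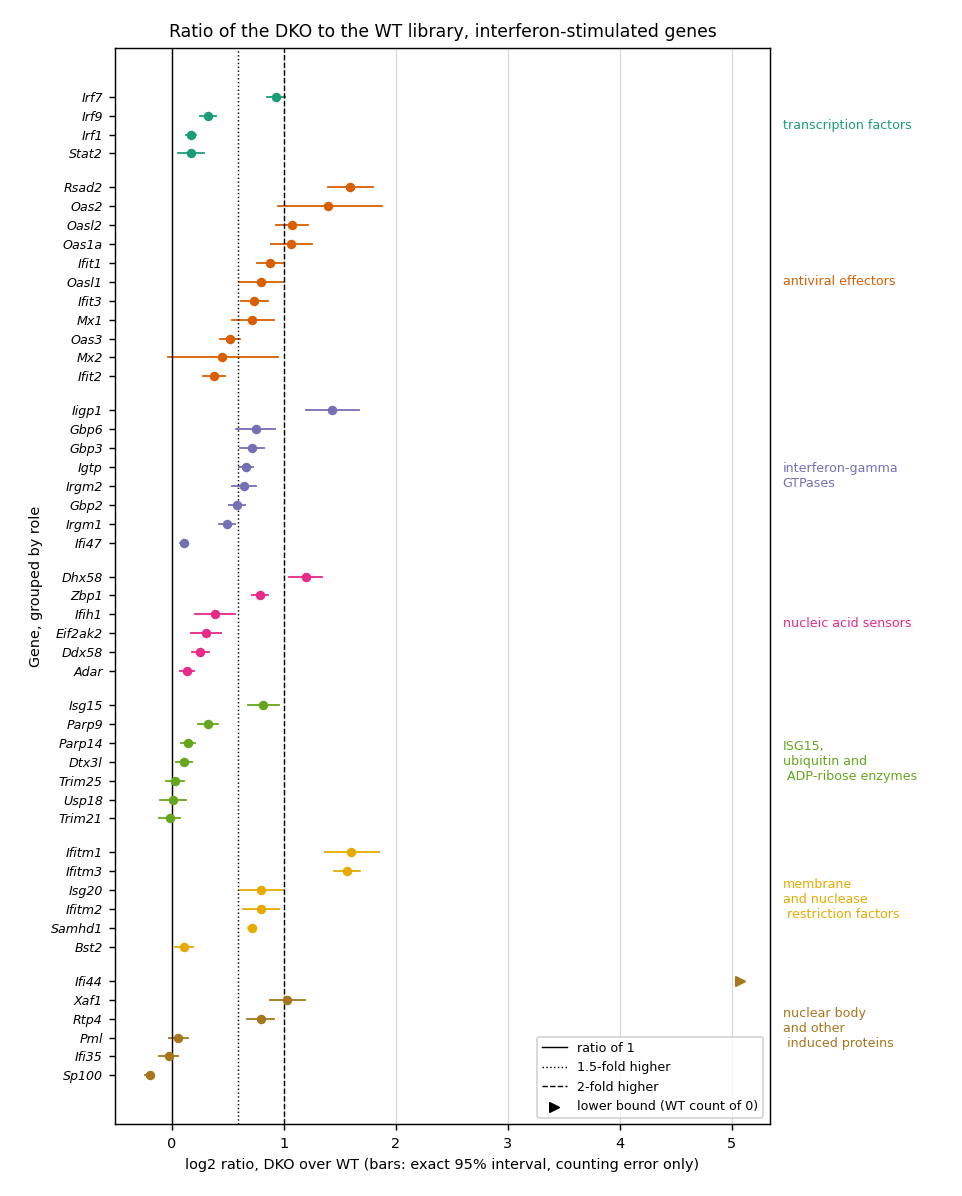
log2 ratio of the DKO to the WT library for each interferon-stimulated gene, grouped by role; bars are exact 95% intervals that cover counting error only, and vertical lines mark ratios of 1, 1.5 and 2. Ifi44 is drawn as an arrow, labelled lower bound, at 33.6-fold, its DKO level over a floor of 3 WT counts. Its exact interval starts lower, at 26.8. The points of all 11 antiviral effectors and 8 GTPases lie to the right of a ratio of 1, with Rsad2 at 1.59 and Iigp1 at 1.43, while Mx2, Usp18, Trim21, Trim25, Pml and Ifi35 have intervals that include a ratio of 1.

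The transcription factors that run the response differed little, apart from Irf7. Irf7, the factor that amplifies type I interferon production and is itself induced by it, gave 2119 WT and 3677 DKO counts (96.6 and 184 CPM) and was 1.90-fold higher (1.80 to 2.01), just under the 2-fold limit. Irf9, the DNA-binding part of the type I complex, with 2985 and 3396 counts, was at 136 against 170 CPM, 1.25-fold higher (1.19 to 1.31). Stat2, its partner, had 55.5 and 62.2 CPM and a ratio of 1.12 (1.04 to 1.21). Irf1, a factor that carries many gamma responses, had the highest level per length of the 4, from 9573 and 9805 counts (436 and 490 CPM), with a ratio of 1.12 (1.09 to 1.16). Thus 1 of the 4 factors (25%) was past 1.5-fold upwards, against 17.7% of all genes, and 0 past 2-fold, against 11.6%. With 4 genes these counts cannot be set apart from those shares.

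Sensors of foreign nucleic acid were also unequal. Dhx58 (LGP2), a helicase that tunes the RIG-I-like sensors, gave 549 WT and 1144 DKO counts (25.03 and 57.2 CPM) and was 2.29-fold higher (2.06 to 2.54). The sensors it works with had smaller ratios: Ddx58, which encodes RIG-I, had 3003 and 3263 counts (137 and 163 CPM) and a ratio of 1.19 (1.13 to 1.25). Ifih1, which encodes MDA5, had 21.6 and 28.1 CPM and a ratio of 1.30 (1.15 to 1.47). Zbp1, a sensor of Z-form nucleic acid that can start necroptosis, was at 115 against 199 CPM, 1.72-fold higher (1.64 to 1.81). The kinase PKR, encoded by Eif2ak2, stops translation on binding double-stranded RNA and had a ratio of 1.23, and Adar, the editing enzyme that keeps the cell's own RNA from being sensed, had 4419 and 4420 counts (201 and 221 CPM) and a ratio of 1.10 (1.05 to 1.14). Annotated exons of Adar overlap those of Chrnb2 on the opposite strand.

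The ISG15 and ubiquitin enzymes were the role with the smallest median, at a log2 ratio of 0.11 over 7 genes, and in them the ubiquitin-like modifier stood apart from its protease. Isg15, the modifier that is joined to proteins and also secreted, gave 712 WT and 1141 DKO counts (32.5 and 57.1 CPM) and was 1.76-fold higher (1.60 to 1.93). Usp18, which removes ISG15 and blocks IFNAR2 signalling as feedback, had 56.0 and 56.3 CPM, with a ratio of 1.01 (0.926 to 1.09). The intervals of Isg15 and Usp18 did not meet, though each is induced by type I interferon. The ubiquitin ligase genes Trim25 and Trim21 had ratios of 1.02 (0.965 to 1.08) and 0.986 (0.924 to 1.05). Parp9 and Dtx3l, whose products form an ADP-ribosylating and ubiquitin ligase complex, are neighbours of each other and of Parp14, and the ratios of Parp9, Dtx3l and Parp14 were 1.25, 1.08 and 1.10. Parp14, an ADP-ribosyltransferase, gave the most reads of the 7, with 3769 and 3787 counts (172 and 189 CPM; 1.05 to 1.15), and Dtx3l 3196 and 3140 (146 and 157 CPM; 1.03 to 1.13). Exons of Parp9 and Dtx3l overlap by 367 bases on opposite strands, so without a stated strand setting these reads cannot be told apart.

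Restriction factors of membranes and nucleotides included Ifitm1 and Ifitm3, which with Rsad2 had the largest ratios of the list after Ifi44. Ifitm3, which stiffens endosomal membranes against viral fusion, gave 840 WT and 2264 DKO counts (38.3 and 113 CPM) and was 2.96-fold higher (2.73 to 3.20). Its neighbour Ifitm1 gave 195 WT and 540 DKO counts (8.89 and 27.0 CPM) and was 3.03-fold higher (2.57 to 3.60). Ifitm2, in the same cluster, had 24.8 and 43.1 CPM and a smaller ratio of 1.73 (1.56 to 1.93). Of the stretches of Ifitm2, 48.5% are shared with another gene model, so its value is uncertain.

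Samhd1, which destroys the deoxynucleotides that retroviruses need, had the most reads of all 49 in the DKO library. Its counts were 9998 and 14927 (456 and 747 CPM), 1.64-fold higher (1.60 to 1.68). Isg20, an RNA exonuclease, had 16.3 and 28.3 CPM and a ratio of 1.74 (1.52 to 1.99). Bst2 (tetherin), which holds budding virions on the cell and also marks plasmacytoid dendritic cells, had 2425 and 2380 counts (111 and 119 CPM) and a ratio of 1.08 (1.02 to 1.14). In this role 5 of 6 genes (83.3%) were at least 1.5-fold higher, against 17.7% of all genes, with a median log2 ratio of 0.80.

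Ifi44 was counted in the DKO library alone. It had 0 WT and 92 DKO counts (0 and 4.60 CPM). The DKO level was 33.6-fold a floor of 3 WT counts (0.137 CPM), and the exact interval starts lower, at 26.8. Of 11735 genes compared, 144 (1.23%) had 0 counts in the WT library, and 3 genes, Ifi44 included, combined that with 92 or more counts in the DKO library. The reverse, 0 DKO counts with 92 or more WT counts, was also found for 3 genes. The list's median of 0.65 was the same with Ifi44 set at 33.6-fold. Xaf1, an inducible partner of XIAP in apoptosis, gave 507 WT and 943 DKO counts (23.1 and 47.2 CPM) and was 2.04-fold higher (1.83 to 2.28), just inside the 2-fold limit. Rtp4, a receptor chaperone that limits flaviviruses, had 42.4 and 73.5 CPM and a ratio of 1.73 (1.59 to 1.88).

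Among the nuclear body genes was the exception to the direction of the list. Sp100, a core protein of PML nuclear bodies, had 10523 and 8355 counts, or 480 and 418 CPM, a level 1.15-fold lower (1.12 to 1.18), the 1 member with an interval below 1. Pml itself had 99.5 and 103 CPM and a ratio of 1.04 (0.979 to 1.10). Ifi35, a leucine zipper protein that pairs with NMI, had 2445 and 2184 counts (111 and 109 CPM) and a ratio of 0.980 (0.925 to 1.04). With scaling by total gene counts, the log2 ratios of Ifi35 and Trim21 changed sign from -0.03 and -0.02 to 0.02 and 0.03, while that of Sp100 was -0.15.

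Levels of different genes are comparable only per length, here CPM per kilobase of annotated exon, with lengths from GENCODE M21 on GRCm38, not the build of the counts. On that scale Ifi47 had the highest level in both libraries, at 277 in WT and 298 in DKO. Bst2, Irf1 and Sp100 followed in the WT library at 140, 131 and 126. In the DKO library Ifitm3 was next after Ifi47, at 167 against 56.5 in the WT library, and then Bst2 at 150, Irf1 at 147 and Samhd1 at 136. The antiviral effectors were lower: the highest of them in the WT library, Ifit3, had 24.5 and 40.8, and Rsad2 had 3.28 and 9.88. The 4 genes with the highest levels per length in the WT library differed by 1.15-fold or less between the libraries, Sp100 downwards and the others upwards.

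Upstream of these genes, the ligands were nearly all uncounted. Ifnb1, Ifna1, Ifna2, Ifna4, Ifna5, Ifne, Ifnk and the lambda genes Ifnl2 and Ifnl3 (under older symbols) each had 0 counts in both libraries. This allows up to 0.137 and 0.150 CPM of uniquely aligned reads. Non-unique alignments were not counted, and sequence shared among these ligand genes was not examined, so the 0 counts do not show absence. Ifng, the gamma ligand made by T and NK cells, was the 1 ligand compared, with 101 WT and 581 DKO counts (4.60 and 29.1 CPM), 6.29-fold higher (5.10 to 7.88). Of the receptors, Ifnar1 had 190 and 195 CPM and a ratio of 1.02 (0.978 to 1.07), and Ifnar2 163 and 155 CPM and a ratio of 0.952 (0.907 to 0.999). Ifngr1, the ligand-binding chain for interferon gamma, had 697 and 783 CPM and a ratio of 1.12. Ifngr2, the signalling chain that T cells keep low, gave 223 WT and 559 DKO counts (10.2 and 28.0 CPM) and was 2.75-fold higher (2.35 to 3.23). Il10rb, shared with the interleukin-10 receptor, had a ratio of 0.849, and the lambda receptor gene Ifnlr1, with 14 and 31 counts, had a ratio of 2.38 (1.25 to 4.94).

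The kinases did not pass 1.5-fold in either direction. Jak1, used by every interferon receptor, had 1799 and 1477 CPM and was 1.22-fold lower. Jak2 had a ratio of 1.14 and Tyk2 of 1.31 (1.25 to 1.37). Among 5 inhibitors, Trex1, the exonuclease that clears cytosolic DNA, was 2.27-fold higher (2.06 to 2.51), whereas Socs1, which blocks JAK kinases, had 106 and 83.5 CPM and was 1.27-fold lower; Socs3, Ptpn2 and Pias1 had ratios of 1.14, 0.907 and 1.06.

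Beyond the 49, 100 further genes of the pathway were found in the libraries and 86 could be compared. The median log2 ratio of the 86 was 0.23, and Ifnlr1, Batf2, Gbp1 and Gbp11 reached 1 CPM in the DKO library alone. Of the 86, 21 (24.4%) passed 2-fold upwards, against 11.6% of all genes, and 0 downwards, against 3.6%. The 21 include Ifnlr1, Batf2, Gbp1 and Gbp11, which entered the comparison only through their DKO level. The list was drawn up with earlier results of these data known, so this share is a description. They did not all follow the antiviral effectors: 33 other type I-type genes had a median of 0.10, with 5 (15.2%) at least 2-fold higher, a share near the background of 11.6%. These 5 were the stem cell antigen gene Ly6a (4.23-fold; 31.5 and 133 CPM), the ISG15-conjugating enzyme gene Ube2l6 (5.68-fold from 66 counts), Phf11 (3.26-fold), Ifi27l2a (2.71-fold; 96.8 and 262 CPM) and Slfn5 (2.08-fold). Herc6 and Ly6e, by contrast, had ratios of 1.02 and 0.986.

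Of 19 other interferon-gamma genes compared, 5 (26.3%) were at least 2-fold higher, against 11.6% of all genes: the chemokine genes Cxcl10 (4.93-fold from 37 counts) and Cxcl9 (2.06-fold), and the scarce guanylate-binding protein genes Gbp1, Gbp10 and Gbp11, at 5.80-fold, 2.64-fold and 4.45-fold from 17, 35 and 8 WT counts. These 3 lay between 1 and 5 CPM in their higher library, where 35.0% of all genes were at least 2-fold higher. Gbp1 and Gbp11 entered the comparison only through their DKO level. The abundant Gbp4 and Gbp7 had ratios of 0.989 and 1.23. The antigen-processing genes Tap1 and Psmb9 were 1.35-fold and 1.32-fold higher, and Psmb8 and Tap2 had ratios of 1.01 and 0.980. Regulators and sensors past 2-fold were Ciita, the master regulator of MHC class II (3.01-fold; 32.0 and 96.3 CPM), Irf5 (2.20-fold), Batf2 (3.03-fold from 8 counts), Tlr7 (2.22-fold), Tlr9 (2.15-fold), Ifi204 (4.88-fold) and Mnda (6.90-fold from 22 counts). Ciita, Irf5, Tlr7, Tlr9, Ifi204 and Mnda are also genes of myeloid cells, B cells or dendritic cells.

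**Figure D5:**
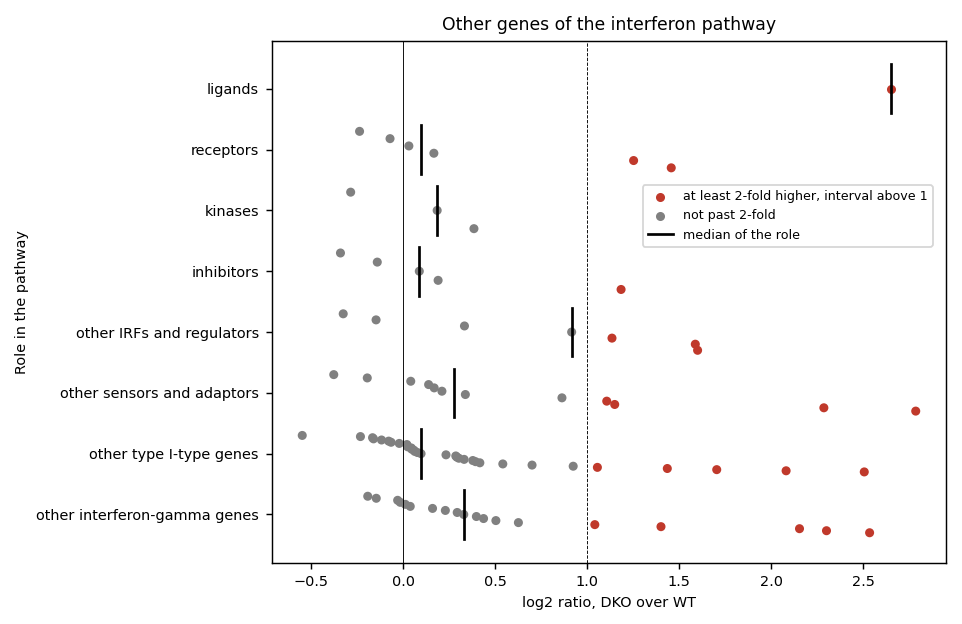
log2 ratio of the DKO to the WT library for 86 other genes of the interferon pathway, by role; red points were at least 2-fold higher with an interval above 1, grey points were not, and black bars are medians. The other type I-type genes centre near 0 (median 0.10) with 5 red points, and Ifng is the single ligand compared, at 2.65.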

How the data were processed

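Per the labels' protocols, total RNA libraries (Illumina TruSeq) were read as single ends of 50 bases. The deposited values are raw counts, 1 whole number per gene and library. Bcl2fastq, TopHat2 2.0.8b, HTSeq and build mm9 are named in the submitters' processing notes, without roles; annotation and strand setting are not given there. Rows that name no gene were left out: of all rows' totals, non-unique alignments held 66.4% (WT) and 64.8% (DKO), reads outside genes 4.89% and 4.45%, and ambiguous reads 0.209% and 0.212%.

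Counts were scaled to CPM with TMM factors (edgeR 4.0.16; 0.983 and 1.02). Ratios used a prior count of 0.5, intervals scipy 1.17.1, and a gene entered where 1 library reached 1 CPM. The ratio script was tested on simulated data. By rule all 49 members are accounted for, those past 2-fold and the top 2 of each role with full values; of other pathway genes, those past 2-fold, receptors and kinases are named. Which further genes of that list are named was chosen after their values were seen, and 1 pathway gene and 1 marker of the lists are not reported here. The members and lists were chosen with earlier results of these data known. Shared stretches are exact 50-base matches among GENCODE M21 transcripts. Alternatives were scaling by total counts or DESeq2 1.42.0 size factors, other limits of abundance and fold, a prior count of 5, and list means. Intervals and floors cover counting error only, as reads that carry no molecular identifier may be copies of a single molecule.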

Additional observations from a re-analysis of the deposited data

How the results depend on the processing

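With scaling by total counts or DESeq2 size factors, and with a prior count of 5, 0 of the 48 members changed their call at 2-fold, and the list's median log2 ratio ran from 0.65 to 0.70; its mean was 0.75. Without a filter 10 members were at least 2-fold higher, and with a minimum of 5 CPM 9 were. With abundance taken as the higher library, 8 of 45 members at 20 CPM or more passed 2-fold upwards, against 3.83% of all genes at that level. As the mean of both it was 6 of 43, against 2.79%, and as the WT level 4 of 38, against 1.47%. The last 2 settings were chosen after seeing the data. The count follows the fold limit. At 1.5-fold it was 25 in all, 8 antiviral effectors, 5 GTPases and 12 of the other roles. At 4-fold it was 1 in all (Ifi44), 0 antiviral effectors, 0 GTPases and 1 of the other roles, and 8 of the other pathway genes. Ifi44, with 0 WT counts, entered only through its DKO level. The share of all genes past 4-fold is not given, so these counts have no background beside them. The mean log2 ratio of the other roles was 0.72 against a median of 0.32, and Ifi44, whose fitted ratio depends on the prior count, is in that mean. In each of these settings 0 members were at least 2-fold lower. Depth limited Oas2, Mx2 and Ifi44, with 57, 65 and 0 WT counts. No paired analysis was possible because each genotype has 1 library.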
